A study of Mus musculus with 7 samples.

Results

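The table of raw counts for WT and SCA7 retina listed 264 genes of the small RNA biotypes, of 52550 genes in all. They were chosen by biotype (miRNA, misc_RNA, snoRNA, snRNA, scaRNA or ribozyme in GENCODE M21, mm10) and by a level of at least 10 raw counts in at least 3 of the 7 libraries. The members were 111 snoRNAs, 58 miRNAs, 40 misc_RNAs, 36 snRNAs, 14 scaRNAs and 5 ribozymes. They are a small part of the 5727 genes with these biotypes, of which 3872 had no count in any library. The libraries came from 7 C57BL/6J mice aged 12.5 weeks, 4 WT and 3 SCA7 homozygotes, with 2 retinas of 1 mouse in each library. SCA7 mice carry a knock-in allele with 140 glutamines at both copies of *Atxn7*, so mutant ataxin-7 is made from the gene's own promoter in every cell type that uses it, and no normal form is left. RNA was depleted of ribosomal RNA and fragmented, and the libraries kept strand. The comparison asked whether these short noncoding genes differed between SCA7 and WT retina, by biotype and beside the host genes that contain them.

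Small structural RNAs serve RNA processing. C/D box snoRNAs guide 2′-O-methylation and H/ACA box snoRNAs guide pseudouridylation of ribosomal RNA, scaRNAs guide the same changes on spliceosomal snRNAs in Cajal bodies, and snRNAs build the spliceosome. Most snoRNAs are cut out of introns of protein or noncoding host genes, whereas 7SK, 7SL, the Y RNAs, the vault RNA, RNase P RNA (*Rpph1*) and RNase MRP RNA (*Rmrp*) have promoters of their own for RNA polymerase III. MicroRNAs are cut from hairpins in longer transcripts, and the miR-183/96/182 cluster is known to be abundant in photoreceptors.

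A read in these libraries is longer than a mature miRNA, so counts at miRNA genes come from hairpins and longer precursors, and mature miRNAs were not measured. The mature sequences are shown to identify the genes and their seeds. Of the 58 miRNA members, 44 had an entry by symbol in RefSeq (GRCm38.p6). The first set holds the retinal cluster, of which *Mir182* and *Mir96* were members and *Mir183* was not. Capitals mark the seed, bases 2 to 8.
miR-182-5p: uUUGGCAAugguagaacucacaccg
miR-96-5p: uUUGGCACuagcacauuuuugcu
miR-183-5p: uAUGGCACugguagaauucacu

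Each of these 3 has a seed of its own. The other downregulated miRNA members with an entry are shown next, because they make up 5 of the 10 miRNA calls below. No seed occurred more than once among them.
miR-1968-5p: uGCAGCUGuuaaggaugguggacu
miR-3473e: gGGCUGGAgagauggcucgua
miR-6392-5p: uCUGGCGCccugguccugucagc
miR-7063-5p: aUGAGAGGugcaggcugagcaca
miR-301a-3p: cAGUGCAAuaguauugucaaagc

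The let-7 members are the one group here with a common seed, and 5 genes of the family, *Mirlet7a-1*, *Mirlet7b*, *Mirlet7c-1*, *Mirlet7c-2* and *Mirlet7f-1*, passed the level of the rule.
let-7a-5p: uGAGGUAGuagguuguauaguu
let-7b-5p: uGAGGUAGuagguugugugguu
let-7c-5p: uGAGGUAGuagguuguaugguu
let-7f-5p: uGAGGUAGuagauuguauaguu

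Total counts were between 56497675 and 96635832 per library, so that 1 count equalled between 0.00972 and 0.0188 CPM, the count scaled to a common library size with TMM factors. The members held between 12.3% and 18.4% of all counts. Of these, *Rn7sk*, *Rpph1* and *Rmrp* alone took between 12.2% and 18.2%, and the other 261 members between 0.126% and 0.197%. Across the members, log2 CPM correlated at between 0.961 and 0.984 within WT (Pearson's r over 244 genes, which are not replicates) and between 0.978 and 0.982 within SCA7. Pairs of libraries from different genotypes correlated at between 0.951 and 0.983. WT replicate 4 was low in several classes of structural RNA, though not in snoRNAs of up to 100 bases (16.98 CPM, within the 15.1 to 18.3 CPM of the other WT libraries). Its summed level of the 59 snoRNA and scaRNA members with an ACA box was 204 CPM, and the other WT libraries had 305 to 433 CPM. Its summed snRNA level was 35.3 CPM against 61.5 to 92.6 CPM. SCA7 replicate 3 was the lowest of its group in both, with 249 and 43.7 CPM. Lens markers were lowest in the same libraries, at 33.7 CPM in WT replicate 4 (113 to 429 CPM in the other WT libraries) and 23.4 CPM in SCA7 replicate 3 (399 and 671 CPM in the other SCA7 libraries), and their part in the sums was not tested. Where the call of a member named below turned on WT replicate 4, the value without it is given. Without that library 26 members were downregulated, 18 of them also in the fit on all libraries. Markers moved with genotype: 8 of 8 rod genes and 6 of 6 cone genes fell, with summed levels of 59820 to 61962 CPM in WT and 15725 to 20418 CPM in SCA7 for rods and of 1282 to 1499 and 178 to 199 CPM for cones. All 9 microglial genes rose, with sums of 42.4 to 55.4 CPM in WT and 102 to 115 CPM in SCA7, and 3 of 4 reactive glia genes rose, with sums of 22.3 to 36.5 CPM in WT and 156 to 169 CPM in SCA7. Pigment epithelium genes, of which 4 of 5 fell, summed to 99.8 to 204 CPM and 16.3 to 38.5 CPM, and no listed marker was at 0 in every library. Sums of the bipolar, amacrine, ganglion, horizontal and Müller glia lists were also lower in every SCA7 library than in any WT library. Their log2 ratios of SCA7 over WT were between -0.36 and -0.25, and only 2 of 5 bipolar genes among them were called. Endothelial sums overlapped. In bulk retina fewer cells of a type and less RNA per cell cannot be told apart, and the part of these shifts in the values below was not tested.

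Of the 264 members, 244 passed the expression filter and were tested among 20128 genes. Downregulation required FC, the ratio of SCA7 to WT, to be under 0.7 and upregulation required it to exceed 1.3, each with an adjusted p under 0.05 (edgeR's quasi-likelihood test, Benjamini-Hochberg adjustment over all genes tested). By these limits 23 members (9.43%) were downregulated, beside 7.91% of all genes, and 3 (1.23%) were upregulated, beside 7.47% of all genes. One of the decreases, *Gm22138*, had 10 counts in WT libraries alone, so that its direction was fixed by the choice of members. Among the 242 tested members with 10 counts in at least 1 library of each genotype, 22 (9.09%) were downregulated and 3 upregulated. In either direction 26 members were called, 10.7% beside 15.4% of all genes. All SCA7 libraries lay below all WT libraries in 36 members (14.8%), beside 18.3% of all genes, and above them in 3 members (1.23%), beside 19.3% of all genes. The share downregulated was thus near the background and the share upregulated under it. The median log2 fold change of the members was -0.20, and that of all genes was -0.02. Most members were low, and low genes as a whole lay lower in SCA7: among the 174 members with a mean under 1 CPM the median was -0.24, and among all 5408 genes of that level it was -0.20. The 70 members with at least 1 CPM had a median of -0.13, beside 0.01 for all 14720 genes of that level.

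**Figure D1:**
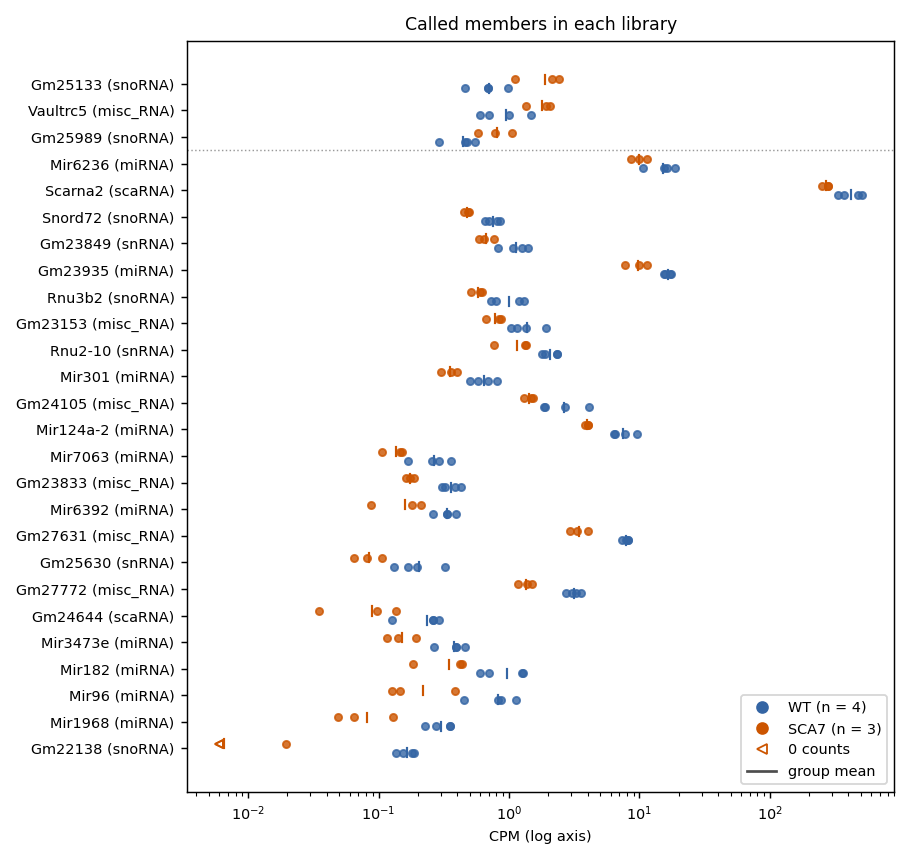
The CPM (log axis) of the 26 called members is plotted for each library, WT (n = 4) in blue and SCA7 (n = 3) in orange, with a bar at each group mean and open triangles for libraries with 0 counts. The 3 upregulated members are above the dotted line, and all but 3 of the 26 members (*Vaultrc5*, *Mir6236* and *Gm24644*) have groups that do not overlap.

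Medians differed in size between biotypes, and that difference was not tested. miRNA members had a median log2 fold change of -0.45 (n = 50 tested), and 10 of them (20.0%) were downregulated, beside 7.91% of all genes and 10.1% of all genes under 1 CPM. No miRNA was upregulated by edgeR or DESeq2, and of the 18 under an unadjusted p of 0.05 all were lower in SCA7 (0 higher). DESeq2 called 9 down. Values below 0 were found for 43 of the 50 (86.0%), beside 52.5% of all genes and 65.6% of those under 1 CPM. The summed miRNA level was 97.9, 90.5, 111 and 75.01 CPM in WT and 60.4, 62.5 and 56.6 CPM in SCA7, so that every SCA7 library lay below every WT library. A pair of genes of uncertain locus described below, *Gm47299* and *Gm23935*, made up 47.3 ± 13.2 CPM of it in WT (SD, n = 4) and 27.9 ± 1.35 CPM in SCA7 (n = 3). The other 56 miRNA members, a split made after these values were seen, summed to 48.0, 47.03, 47.1 and 43.0 CPM in WT and 32.0, 33.5 and 30.2 CPM in SCA7, also without overlap. Sums of all protein-coding genes were lower without overlap too (log2 of SCA7 over WT -0.14, beside -0.64 for all miRNA members). misc_RNA members had a median of -0.39 (n = 39), with 5 downregulated (12.8%) and 1 upregulated. The 5 ribozymes had a median of -0.58 and no call by edgeR or DESeq2 (0 each), and 3 of them were lower under an unadjusted p of 0.05. The median was -0.19 for 34 snRNAs, with 3 downregulated (8.82%), and -0.11 for 13 scaRNAs, with 2 downregulated (15.4%). The snoRNAs were centred near 0, at -0.04 (n = 103), with 3 downregulated (2.91%), *Gm22138* among them, and 2 upregulated. Without WT replicate 4 the medians were -0.60 for miRNAs, -0.40 for misc_RNAs, -0.34 for snRNAs, -0.04 for scaRNAs and -0.07 for snoRNAs. Without SCA7 replicate 3 they were -0.32, -0.26, -0.0084, 0.12 and 0.10 in the same order, so that the sign turned for scaRNAs and snoRNAs. When libraries were scaled by their totals alone, the median of all genes moved to 0.17 and that of the members to -0.01. The distance between them was -0.18 under both scalings, which was bound to hold because scaling moves all genes alike. With 1 library left out the distance was between -0.27 and -0.08.

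**Figure D2:**
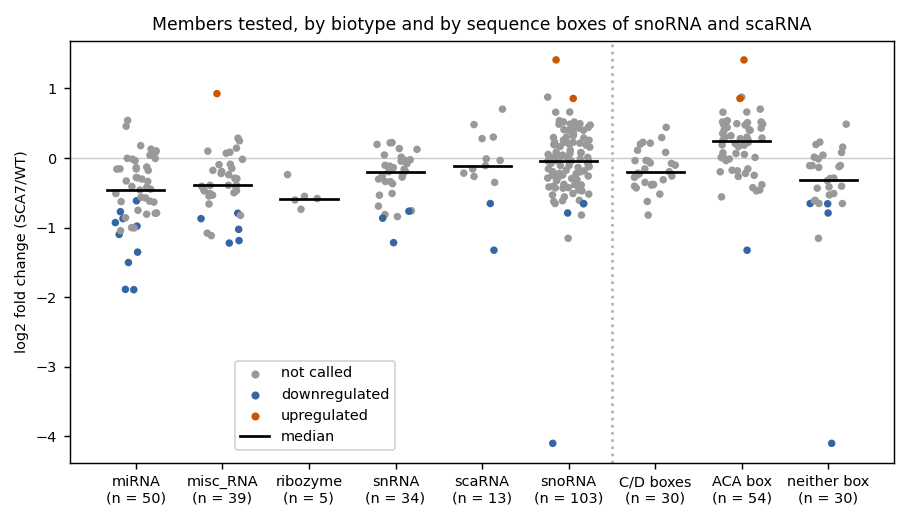
The log2 fold change (SCA7/WT) of each member tested is plotted by biotype on the left and, for snoRNAs and scaRNAs, by the sequence boxes they carry on the right, with called members in colour and a line at each median. miRNAs, misc_RNAs and ribozymes sit mostly below 0, and the members with an ACA box mostly above 0, at medians of -0.45, -0.39, -0.58 and 0.24.

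Among the called miRNAs were both members of the photoreceptor cluster on the minus strand of chromosome 6. *Mir96* (chr6:30169446-30169551) had 66, 62, 24 and 54 counts in WT and 9, 33 and 13 counts in SCA7, or 0.818 ± 0.279 CPM (SD, n = 4) and 0.220 ± 0.145 CPM (n = 3). The groups did not overlap once scaled, with a log2 fold change of -1.89 ± 0.40 (SE, adjusted p = 0.00481). *Mir182* (chr6:30165918-30165992), 3454 bases from *Mir96*, had 75, 50, 32 and 82 counts in WT and 27, 36 and 19 in SCA7. Its level fell from 0.959 ± 0.359 to 0.348 ± 0.142 CPM, again without overlap (log2 fold change -1.50 ± 0.36, adjusted p = 0.00905). *Mir183*, 117 bases from *Mir96*, was not a member, with 1, 6, 4 and 4 counts in WT and 2, 1 and 0 in SCA7. *Rncr4*, a lincRNA gene on the other strand that starts 3156 bases from *Mir183*, fell from 94.9 ± 9.99 to 28.3 ± 3.20 CPM, a log2 fold change of -1.74 ± 0.10 (adjusted p = 2.86e-07). The log2 fold changes of these 3 tested genes lay between -1.89 and -1.50.

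*Mir124a-2*, a hairpin of the neuronal miR-124, was the most counted miRNA gene of the lists of retinal and immune miRNAs. It had 559, 554, 338 and 427 counts in WT and 237, 343 and 413 counts in SCA7. Scaled, these were 9.55, 7.75, 6.34 and 6.53 CPM against 3.85, 4.02 and 4.01 CPM, so that every SCA7 library was below every WT library. Its log2 fold change was -0.93 ± 0.14 (adjusted p = 0.000383). It overlaps an exon of its host *Mir124-2hg*, which fell too, with a log2 fold change of -0.93 ± 0.10 (adjusted p = 4.23e-05). Of the 12 neuronal miRNA genes listed, 2 were members, and the other, *Mir9-1*, was at 0.339 ± 0.0786 CPM (WT) and 0.246 ± 0.0631 CPM (SCA7), overlapping groups that did not pass the test (log2 fold change -0.46 ± 0.29, adjusted p = 0.265). All of its 50-base windows are also in *Gm25641*.

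A further pair of called miRNAs of the naming rule lay in introns. *Mir1968*, in *Grtp1*, had 16, 25, 12 and 23 counts in WT and 4, 11 and 5 in SCA7, a log2 fold change of -1.89 ± 0.38 (adjusted p = 0.00308), while *Grtp1* itself fell by 1.17 on the log2 scale. *Mir3473e*, in *Rbks*, had 23, 19, 21 and 30 counts in WT and 12 in each SCA7 library, a change of -1.35 ± 0.31 (adjusted p = 0.00626). *Rbks*, which encodes ribokinase, was at -0.49 and not past the FC limit. These hairpins had few counts, and no SCA7 library reached a WT library after scaling. The 3 called miRNAs outside the naming rule, listed after their values were seen, were *Mir6392* in *Pnpla3*, *Mir301* in *Ska2* and *Mir7063* in *Ap2a2*, with log2 fold changes of -1.10, -0.87 and -0.98. *Mir301* lost its call without SCA7 replicate 3 (adjusted p = 0.0737), *Mir6392* without WT replicate 1 or 2 or SCA7 replicate 1 or 3 (up to 0.127), and *Mir7063* under 10 of 13 alternatives (up to 0.185), which included leaving out any library other than WT replicate 2 (-0.93, adjusted p = 0.0869 without WT replicate 4).

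Both other called miRNA genes had high counts and unclear identity. *Gm23935* (chr16:11144125-11144181), inside *Zc3h7a* on the other strand, had 1011, 1108, 933 and 1029 counts in WT and 606, 980 and 793 in SCA7, or 16.5 ± 1.03 against 9.68 ± 1.89 CPM, a log2 fold change of -0.77 ± 0.12 (adjusted p = 0.000521). All 50-base windows of it were also found in transcripts of other genes, so its locus is uncertain. *Mir6236* (log2 fold change -0.61 ± 0.18, adjusted p = 0.0339, overlapping groups) lost its call under 7 of 14 alternatives (adjusted p up to 0.152), which included leaving out WT replicate 2, 3 or 4 or SCA7 replicate 1 or 3 (adjusted p = 0.0881 without WT replicate 4). Its annotated sequence is known to resemble 28S ribosomal RNA. Counts on annotated rRNA genes summed to 70.2 to 99.7 CPM in WT and 53.2 to 105 CPM in SCA7, and their part in *Mir6236* was not tested. *Gm47299*, the most counted miRNA gene of all, was at 30.8 ± 12.4 and 18.3 ± 0.677 CPM and did not pass the test (log2 fold change -0.75, adjusted p = 0.171). Without WT replicate 4 it was at -0.96 and passed (adjusted p = 0.00961), as it did with the replicate number as a block (-0.93, adjusted p = 4.14e-06). The block fit takes no genotype difference from WT replicate 4 either, since no SCA7 library shares its number. Over all alternatives *Gm47299* was between -0.96 and -0.49 (adjusted p up to 0.327). It overlaps the end of a 7SL gene, described below.

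Of the 5 let-7 members 0 were called by edgeR and 0 by DESeq2, and 1 was lower under an unadjusted p of 0.05. *Mirlet7a-1* was at 0.851 ± 0.194 CPM (WT) and 0.633 ± 0.184 CPM (SCA7) (log2 fold change -0.45 ± 0.24, adjusted p = 0.198), and *Mirlet7f-1*, from the same host *6720427I07Rik*, was at 0.371 ± 0.188 and 0.187 ± 0.0647 CPM (-1.04 ± 0.42, adjusted p = 0.0862). *Mirlet7a-1* passed with the replicate block (-0.60, adjusted p = 0.0410) and *Mirlet7f-1* without WT replicate 3 (-1.28, adjusted p = 0.0119). The other 3 had values between -0.42 and -0.14. Of the glial and pigment epithelium list only *Mir29a* was a member, at 0.310 ± 0.180 and 0.147 ± 0.0585 CPM (adjusted p = 0.132). *Mir204* and *Mir211*, known from pigment epithelium, reached at most 14 and 21 counts and were not members. Of the 10 genes listed for immune cells and injury, which are miRNA genes and the lincRNA host *Mir142hg*, 0 were members, and 8 of the 10 had 0 counts in every library.

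Transcripts of RNA polymerase III had the largest counts among the members. 7SK RNA, *Rn7sk* (chr9:78175303-78175633), which holds the elongation factor P-TEFb inactive, was at 98693, 87362, 120678 and 86695 CPM in WT and 75082, 74139 and 75456 CPM in SCA7. The groups did not overlap, and its log2 fold change of -0.39 ± 0.13 passed the test (adjusted p = 0.0403) but not the FC limit. *Rpph1*, the RNA of RNase P, which trims the ends of tRNAs, was at 46604, 39714, 64967 and 32305 CPM in WT and between 30678 and 31832 CPM in SCA7 (log2 fold change -0.55 ± 0.20, adjusted p = 0.0583). Without WT replicate 4 it was at -0.69 and with the replicate block at -0.65, past the test and the FC limit (adjusted p = 0.00749 and 0.000233). *Rpph1* overlaps *Ccnb1ip1* in part. *Rmrp*, which cleaves ribosomal RNA precursors, was at 13590 ± 4130 CPM (WT) and 8954 ± 446 CPM (SCA7) (-0.60 ± 0.22, adjusted p = 0.0690), and WT replicate 4, at 8579 CPM, lay within the SCA7 range. Without that library *Rmrp* was at -0.77 (adjusted p = 0.00100) and with the replicate block at -0.75 (adjusted p = 1.47e-06), past the test and the FC limit in both. The block fit takes no genotype difference from WT replicate 4 either, since no SCA7 library shares its number. Over all alternatives *Rpph1* was between -0.69 and -0.33 (adjusted p up to 0.275) and *Rmrp* between -0.77 and -0.40 (up to 0.264). *Rprl3*, annotated as a ribozyme too, had a log2 fold change of -0.24 ± 0.13 (adjusted p = 0.186). In *Rn7sk*, *Rpph1* and *Rmrp* the spread was larger among WT than among SCA7 libraries. Scaled by library totals alone, *Rn7sk* was at -0.20 and no longer passed the test (adjusted p = 0.165).

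Y RNAs bind the Ro60 protein, and their levels varied more between libraries than between genotypes. *Rny1* was at 66.4 ± 27.1 and 48.8 ± 15.7 CPM (log2 fold change -0.45 ± 0.43, adjusted p = 0.500), and *Rny3* at 86.2 ± 36.1 and 95.3 ± 32.8 CPM (0.14 ± 0.45, adjusted p = 0.845). Without WT replicate 4 *Rny3* was at -0.08. *Trove2*, the Ro60 gene, was at 282 ± 2.28 and 212 ± 10.3 CPM, a log2 fold change of -0.41 ± 0.06 (adjusted p = 0.000333) that did not pass the FC limit.

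The vault RNA rose, and so did the gene of its main protein. *Vaultrc5* had 58, 50, 79 and 39 counts in WT and 126, 165 and 139 counts in SCA7, or 0.991, 0.699, 1.48 and 0.597 CPM against 2.05, 1.93 and 1.35 CPM. WT replicate 3 was above SCA7 replicate 3, and the log2 fold change was 0.93 ± 0.27 (adjusted p = 0.0269). It lost its call when WT replicate 1 or 2 or SCA7 replicate 1 or 2 was left out (adjusted p up to 0.102). *Mvp*, the major vault protein, rose from 10.2 ± 0.513 to 16.7 ± 0.526 CPM, a log2 fold change of 0.71 ± 0.07 (adjusted p = 1.74e-05).

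7SL RNA, the core of the signal recognition particle, has several near-identical genes. *Rn7s1* and *Rn7s2* have the same sequence of 300 bases, yet *Rn7s1* had between 42.3 and 94.3 CPM in 6 libraries and *Rn7s2* between 0.748 and 1.58 CPM in all 7. SCA7 replicate 2 stood apart, with 88 counts (1.03 CPM) for *Rn7s1*, where the others had 3265 to 5237 counts. The fit gave -1.12 ± 1.10 for *Rn7s1* (adjusted p = 0.511), and the alternatives gave between -1.99 and -0.54 (adjusted p from 0.317 to 0.643). *Rn7s2* and *Rn7s6* did not pass the test (log2 fold changes -0.50 and -0.51). *Rn7s2* passed without WT replicate 4 (-0.62, adjusted p = 0.0349) and with the replicate block (-0.61, adjusted p = 0.0178). *Gm47295* and *Gm47299*, annotated as miRNAs, lie over the 3′ ends of *Rn7s1* and *Rn7s2*. Since identical copies cannot be told apart by sequence, none of these values can be assigned to a single gene. *Gm24105* and *Gm23153*, with 12.3% and 15.2% of their windows in other genes, *Rn7s1* among them, were called downregulated (log2 fold changes -0.87 and -0.79) and are named after their values were seen. *Gm24105* lost its call without WT replicate 1 or any SCA7 library (adjusted p up to 0.104), and *Gm23153* without SCA7 replicate 3 (adjusted p = 0.0900).

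**Figure D3:**
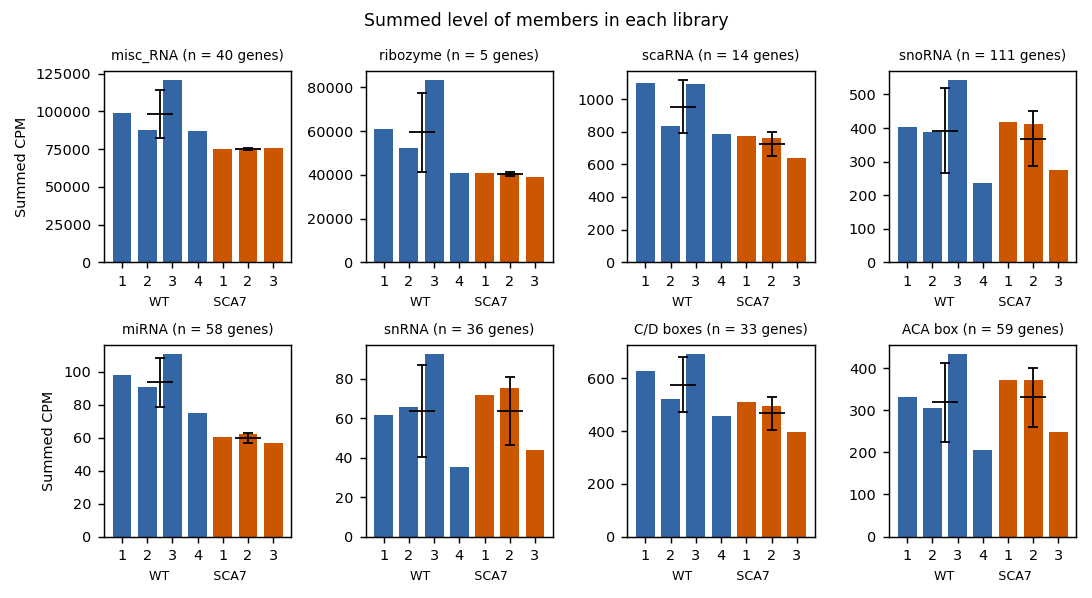
Bars give the summed CPM of the members of each biotype, and of the snoRNA and scaRNA members by sequence box, in each library, with the mean and SD of each genotype in black (WT, n = 4; SCA7, n = 3). Sums of misc_RNAs (almost all *Rn7sk*), scaRNAs and miRNAs were lower in every SCA7 library than in any WT library. So was the sum of all protein-coding genes, at 834068 to 872599 CPM in WT and 766618 to 787793 CPM in SCA7. As shares of all counts the scaRNA sums overlapped (0.0767% in WT replicate 4, 0.0844% in SCA7 replicate 1). Sums of snoRNAs, snRNAs and the ACA box group overlapped, with WT replicate 4 the lowest of all 7.

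Guide RNAs were grouped by the letters of their transcripts. A gene was given C/D boxes where NTGATGA was found among its first 21 bases and CTGA among its last 16, and an ACA box where ACA ended 2 to 4 bases before its 3′ end, both on the transcribed strand. Of the 125 snoRNA and scaRNA members, 33 (26.4%) had C/D boxes, 59 (47.2%) an ACA box, 2 both and 31 (24.8%) neither, beside 19.4%, 43.8%, 0.449% and 36.3% of all 1558 such genes in the table. A match is a description of these letters only. The 54 ACA box members tested had a median log2 fold change of 0.24, with 38 above 0, and the 30 C/D box members a median of -0.21, with 23 below 0. Of the first group 1 was downregulated and 2 upregulated, and of the second 0 were called by edgeR or DESeq2 (2 lower under an unadjusted p of 0.05). Grouped by name, the contrast was smaller. The 15 Snora members tested had a median of 0.07, with 9 above 0 and 0 called. The 27 Snord members tested had a median of -0.13, with 19 below 0 and 1 downregulated. The 30 members tested with neither box had a median of -0.31, with 23 below 0 and 4 downregulated (13.3%, beside 7.91% of all genes), namely *Scarna2*, *Rnu3b2*, *Snord72* and *Gm22138*, whose direction the choice of members fixed. Their summed level was 544, 394, 508 and 359 CPM in WT and 312, 307 and 269.9 CPM in SCA7, without overlap, and *Scarna2* held most of it (422 and 268 CPM on average). Without WT replicate 4 the ACA box median was 0.07, without SCA7 replicate 3 it was 0.42, the C/D box median was -0.18 and -0.08, and the median with neither box was -0.33 and -0.18. The summed ACA box level was 330, 305, 433 and 204 CPM in WT and 371, 371 and 249 CPM in SCA7. The genotypes overlapped.

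Both called snoRNAs that rose had an ACA box. *Gm25133* (chr14:96588827-96588956), 69.7 kb from the nearest tested gene, had 57, 49, 37 and 30 counts in WT and 149, 181 and 114 counts in SCA7. In CPM these were 0.974, 0.685, 0.694 and 0.459 against 2.42, 2.12 and 1.11, all SCA7 libraries above all WT libraries, with a log2 fold change of 1.41 ± 0.29 (adjusted p = 0.00397). The call was kept under all 14 alternatives run. The gene differs from *Snora30*, an intronic snoRNA of *Srcap*, at 2 of 130 positions counted from the 5′ end, A65G and C82T with the base of *Snora30* first. The pair is shown from the GENCODE M21 transcripts of mm10, with the ACA box in capitals.
Gm25133: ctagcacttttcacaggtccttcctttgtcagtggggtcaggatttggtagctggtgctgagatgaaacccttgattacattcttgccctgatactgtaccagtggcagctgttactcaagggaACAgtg
Snora30: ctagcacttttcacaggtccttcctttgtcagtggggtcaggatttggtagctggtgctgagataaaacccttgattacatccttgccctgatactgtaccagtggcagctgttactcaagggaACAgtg

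*Snora30* (chr7:127527874-127528003) was at 1.62 ± 0.352 CPM (WT) and 1.71 ± 0.424 CPM (SCA7), overlapping groups with a log2 fold change of 0.08 ± 0.21 (adjusted p = 0.819). The copies share 15 of 81 windows of 50 bases, so that part of the reads could be split between them. *Gm25989* (chr16:43886682-43886814), in an intron of *Qtrt2*, was at 0.478, 0.461, 0.544 and 0.291 CPM in WT and 0.780, 1.05 and 0.573 CPM in SCA7, without overlap. Its log2 fold change was 0.86 ± 0.26 (adjusted p = 0.0296), beside 0.14 ± 0.06 for *Qtrt2*, and the call was lost without WT replicate 1, 2 or 4 or SCA7 replicate 1 or 2 (adjusted p up to 0.162). Without WT replicate 4 it was at 0.70 (adjusted p = 0.0611). *Gm25117* in *Nap1l1*, the most counted ACA box snoRNA after *Snora73b*, was at 22.3 ± 6.89 and 32.4 ± 10.8 CPM and did not pass the test (0.54 ± 0.35, adjusted p = 0.314), and was at 0.37 without WT replicate 4. *Snora73b* itself, in *Rcc1*, was at 131 ± 47.9 and 117 ± 21.6 CPM (adjusted p = 0.770), and at -0.35 on the log2 scale without WT replicate 4. *Snord17* in *Snx5* had a log2 fold change of -0.62 and did not pass the test (adjusted p = 0.229), and passed at -0.83 without WT replicate 4 (adjusted p = 0.0102).

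*Gm22138* (chr9:86703819-86703946) passed the level of the rule in WT libraries alone, so its direction was fixed by the choice and no p is given. It had 8, 13, 10 and 10 counts in WT and 0, 0 and 2 counts in SCA7. None of its 50-base windows was shared with another gene, and it carried neither box.
Gm22138: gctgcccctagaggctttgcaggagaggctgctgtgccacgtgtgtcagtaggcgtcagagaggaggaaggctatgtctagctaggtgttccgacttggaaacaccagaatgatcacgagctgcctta

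The neighbours of *Gm22138* on the same strand were *A330041J22Rik*, 2566 bases before it, and *Gm37484*, 8058 bases after it, with log2 fold changes of -0.41 ± 0.25 (adjusted p = 0.242) and -1.79 ± 0.62 (adjusted p = 0.0513). *Gm22711* was the other member that reached 10 counts in WT libraries alone, and *Mir700*, *Gm24289* and *Rnu3a* did so in SCA7 libraries alone. These last 3 were not tested.

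*Scarna2* (chr3:108554338-108554751), a Cajal body guide RNA that lies between genes, was the most counted scaRNA and fell. Its level was 511, 370.0, 478 and 330.2 CPM in WT and 278, 277 and 251 CPM in SCA7, without overlap. The log2 fold change was -0.65 ± 0.14 (adjusted p = 0.00674), and between -0.76 and -0.46 over the alternatives. The call was lost without WT replicate 3, with library totals alone and with no filter beyond 1 count (adjusted p up to 0.0550). The next in level, *Gm25395* in *Atg16l1* and *Gm22009* in *Kpna4*, were at -0.35 ± 0.18 (adjusted p = 0.185) and -0.16 ± 0.13 (adjusted p = 0.397). Of the 7 members named Scarna, *Scarna2* alone was called, and their median was -0.03. *Gm24644* in *Fbxo3*, outside the naming rule, was called at -1.32 from 17, 9, 14 and 17 counts in WT and 6, 3 and 14 in SCA7, and lost its call under 6 of 12 alternatives (adjusted p up to 0.166), which included leaving out WT replicate 1 or 3 or SCA7 replicate 1 or 2.

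Of the snRNAs, the pair of U2 genes with the same 191 bases was called. U2 pairs with the branch point in splicing. *Rnu2-10* was at 2.32, 1.78, 2.33 and 1.88 CPM in WT and 1.33, 1.35 and 0.768 CPM in SCA7 (log2 fold change -0.86 ± 0.21, adjusted p = 0.00814), and *Gm23849*, in an intron of *Rdm1*, at 1.14 ± 0.249 and 0.663 ± 0.0902 CPM (-0.76 ± 0.21, adjusted p = 0.0162). The groups did not overlap in either, and every window of both is shared, so that they count as 1 uncertain source. *Gm23849* is outside the naming rule and lost its call without SCA7 replicate 1 or 3 (adjusted p up to 0.0728). The third call, *Gm25630* in *Cdon*, rested on 19, 14, 7 and 11 counts in WT and 4, 7 and 11 in SCA7 (-1.22 ± 0.40, adjusted p = 0.0412) and was lost under 5 of 10 alternatives (adjusted p up to 0.132), leaving out any SCA7 library among them. *Rnu11* and *Rnu12*, of the minor spliceosome, were at -0.14 ± 0.26 and -0.14 ± 0.42. The 3 most counted snRNAs, *Gm24265*, *Gm24407* and *Gm22513*, were at 0.13, 0.04 and 0.01, and without WT replicate 4 they were at -0.08, -0.18 and -0.25.

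A pair of misc_RNA genes lay inside *Vax2os*, a retinal lncRNA gene, on the opposite strand. *Gm27631* (chr6:83703518-83703983) was at 7.84, 8.14, 7.31 and 8.11 CPM in WT and 2.96, 4.04 and 3.32 CPM in SCA7, a log2 fold change of -1.19 ± 0.11 (adjusted p = 1.37e-05). *Gm27772* (chr6:83702491-83702677) was at 3.15 ± 0.358 and 1.35 ± 0.162 CPM, a change of -1.22 ± 0.14 (adjusted p = 6.51e-05). Neither overlapped between genotypes. *Vax2os* on the other strand fell from 91.1 ± 18.0 to 32.4 ± 3.93 CPM (-1.49 ± 0.15, adjusted p = 0.000188). All 50-base windows of both genes are also in *Vax2os* on its own strand, and the strand setting of the counting is not given in the sources used here. The last called misc_RNA, *Gm23833* in *Airn*, was outside the naming rule, at -1.02 ± 0.26 (adjusted p = 0.0120).

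Of the 264 members, 187 lay inside a longer gene on the same strand (158 hosts), 163 of them in introns and 24 over an exon. A further 62 lay between genes, 13 met a gene on the other strand only, and 2 overlapped a gene in part. In the 162 pairs in which member and host were tested (139 hosts), the median log2 fold change was -0.18 for members and -0.05 for hosts, and the median difference was -0.06 (quartiles -0.38 and 0.24). Downregulated were 12 of these members (7.41%) and 16 of their host entries (9.88%), both near the 7.91% of all genes, and 5 pairs had both. In the 16 pairs with a downregulated host (11 hosts, *Tex14* with 6 members among them) every member had a value below 0, 5 (31.2%) were downregulated, and the median was -0.50 for members and -1.06 for hosts. Members of 1 host share it and are not independent. By biotype the median difference was -0.39 for 29 miRNAs, -0.28 for 16 misc_RNAs, -0.12 for 16 snRNAs, 0.09 for 89 snoRNAs and 0.13 for 10 scaRNAs. The 17 members in ribosomal protein genes had a median log2 fold change of -0.04, and of these *Snord72* of *Rpl37*, named as a C/D box snoRNA although the letters searched were not found in it, was called. It was at 0.754 ± 0.0899 and 0.478 ± 0.0199 CPM without overlap (-0.66 ± 0.19, adjusted p = 0.0205), while *Rpl37* was at -0.01 ± 0.08. It lies outside the naming rule and lost its call when WT replicate 2 or any SCA7 library was left out (adjusted p up to 0.0771).

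**Figure D4:**
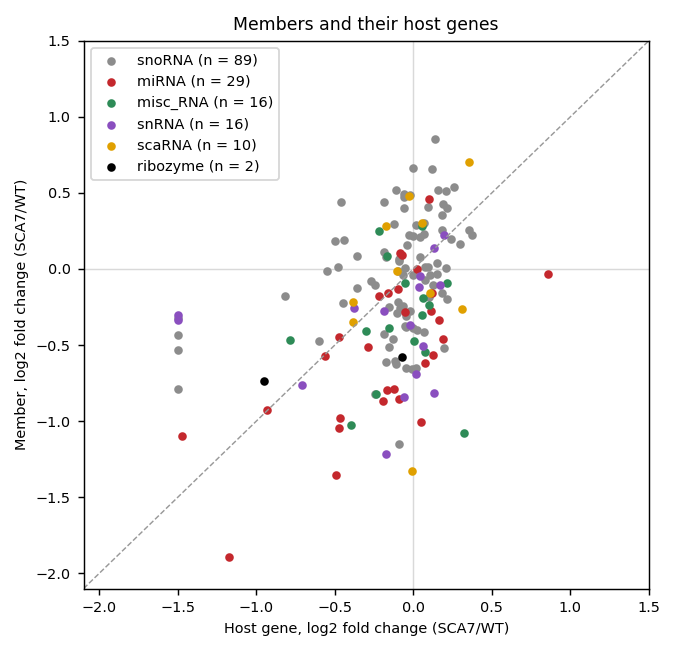
Each point is a member with a tested host (n = 162 pairs), with the host's log2 fold change (SCA7/WT) on the x axis and the member's on the y axis, coloured by biotype, and a dashed line where both are equal. Most hosts lie near 0 while members spread from -1.89 to 0.86, and the 6 members in *Tex14* form a column at -1.50.

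Of the hosts with 3 or more members, *Tex14*, a testis gene which fell (log2 fold change -1.50 ± 0.15), spans 6 members: the U1 genes *Rnu1a1* and *Gm22068* and the U3 genes *Rnu3b1*, *Rnu3b2*, *Rnu3b3* and *Rnu3b4*, all between -0.79 and -0.30. U3 is the snoRNA that guides cleavage of the ribosomal RNA precursor, and its 4 genes have 1 sequence of 216 bases. Of them *Rnu3b2* was called, from 76, 52, 63 and 52 counts in WT and 38, 51 and 53 in SCA7 (-0.79 ± 0.23, adjusted p = 0.0242), and it lost the call under 5 of 14 alternatives (adjusted p up to 0.0975), leaving out WT replicate 1 or any SCA7 library among them. In *2410006H16Rik*, *Snord49a*, *Snord49b* and *Snord65* were between -0.43 and 0.44, with the host at -0.19 ± 0.14. In *Kansl2*, *Snora34*, *Snora2b* and *Mir1291* were between -0.22 and -0.01, with the host at -0.10 ± 0.07. In *Gm45713*, *Snord32a*, *Snord34* and *Snord35a* were between -0.40 and 0.49. Of these 9 members 0 were called.

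Of 106 tested genes of the machinery list that make or bind these RNAs 0 were downregulated and 5 (4.72%) upregulated by edgeR, beside 7.91% and 7.47% of all genes, and DESeq2 called the same numbers. An adjusted p under 0.05 was found for 30 (28.3%), the same share as over all genes (28.3%), and an unadjusted p under 0.05 for 17 that were lower and 25 that were higher in SCA7. The upregulated genes were *Ago4*, a carrier of miRNAs (log2 fold change 0.95 ± 0.07), *Mvp* (above), *Rpp14* of RNase P (0.41 ± 0.07), *Polr3k* of RNA polymerase III (0.45 ± 0.08) and *Ints14* of the Integrator complex (0.44 ± 0.06). *Ago4* rose from 23.8 ± 2.04 to 46.0 ± 0.922 CPM. Group medians were between -0.03 and 0.10, with -0.02 for the 14 miRNA pathway genes, -0.02 for the 11 snoRNP genes and 0.10 for the 24 genes of RNA polymerase III and SNAPc. Within the miRNA group, *Ago3* and *Tarbp2* were at -0.47 ± 0.07 and -0.43 ± 0.06 and *Xpo5*, which exports hairpins from the nucleus, at 0.33 ± 0.06, all under an adjusted p of 0.05 and inside the FC limits.

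At the edge of the rule, 18 genes had a third-highest count of exactly 10 and were members, and 18 had 9 and were not. Just inside were *Gm22220* (10, 7, 7 and 5 counts in WT and 7, 13 and 10 in SCA7) and *Mir697* (10, 10, 9 and 4, and 3, 6 and 11). Just outside were *Gm24307* (17, 13, 8 and 9, and 4, 1 and 1), *Gm22303* (1, 2, 3 and 2, and 10, 16 and 9) and *Snord4a* (8, 7, 6 and 9, and 14, 9 and 12). Of the members, 153 had 10 counts in all 7 libraries. The 20 members that were not tested all fell to the expression filter.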

How the data were processed

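Total RNA from whole retina of 4 WT and 3 SCA7 mice was sequenced from stranded, rRNA-depleted libraries. The deposited values are raw counts per gene: the authors aligned single reads to mm10 with TopHat2 2.0.14 and Bowtie2 2.1.0 and counted them with HTSeq 0.6.1. The counting mode and its strand setting are not given in the sources used here. Reads that match several loci may be lost or split, which affects repeated families.

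Biotypes, positions and hosts (a longer gene on the same strand that contains the member) came from GENCODE M21, in which 147 genes of the table had no entry. Genes were filtered with filterByExpr, scaled by TMM and tested with edgeR 4.0.16 (quasi-likelihood, robust; R 4.3.3), with Benjamini-Hochberg adjustment over 20128 genes. DESeq2 1.42.0 was an alternative. CPM were computed from the counts.

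Members, gene lists and tests were chosen with earlier results of these data known. Named were, of the called members whose groups do not overlap, up to 8 with the largest decrease and up to 8 with the largest increase, the 3 with the highest mean count of each biotype, members of listed families, and those in hosts with at least 3 members. Other alternatives were TMM over protein-coding genes, DESeq2 size factors, 2 other filters, a replicate block and each library left out. Sums were also taken as shares of all counts. After the data were seen, library totals alone (for all results but the sums), members without a shared 50-base window, and the alternatives for machinery genes and for sums without a library were added. Values of 1 marker gene are left out.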

Additional observations from a re-analysis of the deposited data

How the results depend on the processing

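With 23 members downregulated and 3 upregulated, leaving out 1 library gave 14 to 26 and 1 to 9. Library totals alone, added after the data were seen for the counts of calls, gave 10 upregulated members and 20 machinery genes. The same scaling, planned for the sums, gave summed levels of -0.45 for miRNAs and -0.20 for misc_RNAs (log2 of SCA7 over WT). An adjusted p under 0.01 left 11 and 1, a median of 50 counts left 11 downregulated, and members without a shared 50-base window gave 15 and 1. These last 3 settings test or call fewer members by construction. For the other values the cause was not tested. Over the refits with other scaling, test, filter or block and with each library left out (at most 14 for each member), 12 of the 26 called members kept their call in every refit that tested them and 14 lost it in at least 1. Without *Gm22138*, whose direction the choice of members fixed, 11 of 25 kept it. With an adjusted p under 0.01 asked of the fit on all libraries as well, these were 11 and 10. The median over members was between -0.29 and -0.09 with 1 library left out, and the median difference of member and host between -0.17 and 0.08.

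Whether the replicate numbers shared by the titles pair the libraries is not known. Deviations of same-numbered libraries correlated at 0.00527, 0.204 and 0.0893, and those of differently numbered libraries at between -0.208 and 0.141. With the replicate block 35 members were downregulated and 3 upregulated, 22 and 3 of them shared with the fit without it. WT replicate 4 adds nothing to the genotype comparison of the block fit, since no SCA7 library shares its number. Over all genes, an adjusted p under 0.05 was found for 6879 with the block, 5705 without it and 5878 without WT replicate 4.

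Of the members named by the rule, those not called that passed the test under an alternative were *Gm47299*, *Rmrp*, *Rn7s2* and *Rpph1* (without WT replicate 4 and with the block; *Rpph1* also with TMM over protein-coding genes), *Snord17* (without WT replicate 4), *Mirlet7a-1* (block) and *Mirlet7f-1* (without WT replicate 3). No called member reversed. Among members that did not pass the test, library totals alone gave 0.032 for *Gm22009*, 0.056 for *Mirlet7b*, 0.029 for *Mirlet7c-1*, 0.058 for *Rnu11*, 0.054 for *Rnu12*, 0.15 for *Rnu73b* and 0.051 for *Snora73b*. The replicate block gave -0.26 for *Gm22513*, -0.087 for *Gm24265*, -0.19 for *Gm24407*, 0.031 for *Rnu73b* and -0.10 for *Rny3*, and TMM over protein-coding genes -0.011 for *Gm22513*. With 1 library left out, log2 fold changes crossed 0, with ranges of -0.25 to 0.30 for *Gm22513*, -0.084 to 0.41 for *Gm24265*, -0.18 to 0.31 for *Gm24407*, -0.39 to 0.17 for *Mirlet7b*, -0.48 to 0.12 for *Mirlet7c-1*, -0.29 to 0.10 for *Rnu11*, -0.40 to 0.21 for *Rnu12*, -0.62 to 0.14 for *Rnu3b4*, -0.28 to 0.31 for *Rnu73b*, -0.076 to 0.41 for *Rny3* and -0.35 to 0.089 for *Snora73b*.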
